A study of Mus musculus with 10 samples.

Results

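Ribosome biogenesis genes encode the proteins that transcribe, modify, cut and assemble ribosomal RNA in the nucleolus. A list of 34 mouse genes of this kind was looked up by gene symbol, and 32 of them were found among the 19025 genes of the deposited RNA-seq tables. Wdr43 and Utp20 were not among the rows and are not analysed here. All 32 had an FPKM (fragments divided by transcript length and by the size of the library) of 1 or more in at least 2 libraries, so none was lost to the filter on low values.

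The series profiled 5 groups of C57BL/6 mouse cells with 2 libraries each, 10 in all, to set ES cells, B cells and T cells beside each other in a study of Polycomb and Trithorax complexes. TSA-treated Th2 cultures were splenic CD4 T cells grown for 5 days with 15 ng/ml IL-2 and 10 ng/ml IL-4, with 10 nM trichostatin A (TSA), an inhibitor of histone deacetylases, added on day 2 and kept for 3 days. Th2 cultures were grown in the same cytokines without TSA. CD4 T cells and B220 B cells were taken from spleens of mice aged 6 to 8 weeks by magnetic sorting, with a stated purity above 98%. ES cells were of the B6N-22 line, grown with LIF at 1000 units/ml and 20% serum over a layer of embryonic fibroblasts treated with mitomycin C, which the labels do not say was removed. An age was not given for the mice behind the Th2 cultures.

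Ribosome production starts when RNA polymerase I copies the ribosomal DNA into a long precursor. Guided by small nucleolar RNAs, box C/D particles methylate this precursor and box H/ACA particles convert chosen uridines to pseudouridine, while processing factors cut and fold it into the small and large subunits. Resting lymphocytes are small cells with little ribosome production, which increases when T cells are activated and divide.

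Promoter windows from RefSeq (GRCm38.p6), 250 bases before to 50 after the annotated start, were found for 26 of the 32 genes. TSA-treated Th2 libraries lay above both untreated ones for 2 of the 32 genes, Nop10 and Polr1c, and below both for 13, Rrp9 among them. The windows of those 2 genes, and of Dkc1 and Nop2 as examples of the 13, are printed 5′ to 3′. They lie at chr2:112261676-112261975 (plus strand), chr17:46247996-46248295 (minus strand), chrX:75095604-75095903 (plus strand) and chr6:125131633-125131932 (plus strand). Capitals mark the letters CACGTG (an E-box), CCGGAAG (an ETS-type site) and TATAAA, each searched on both strands.
Nop10: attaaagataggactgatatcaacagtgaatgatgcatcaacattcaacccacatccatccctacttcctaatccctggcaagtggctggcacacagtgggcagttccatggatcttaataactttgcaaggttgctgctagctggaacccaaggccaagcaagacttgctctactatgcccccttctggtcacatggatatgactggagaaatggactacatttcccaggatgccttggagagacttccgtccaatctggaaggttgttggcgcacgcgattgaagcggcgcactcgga
Polr1c: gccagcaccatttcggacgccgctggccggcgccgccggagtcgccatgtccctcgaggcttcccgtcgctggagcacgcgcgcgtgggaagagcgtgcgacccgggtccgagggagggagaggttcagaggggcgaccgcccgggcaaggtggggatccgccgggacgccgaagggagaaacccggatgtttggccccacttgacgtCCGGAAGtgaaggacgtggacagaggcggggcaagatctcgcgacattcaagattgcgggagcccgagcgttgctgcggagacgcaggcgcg
Dkc1: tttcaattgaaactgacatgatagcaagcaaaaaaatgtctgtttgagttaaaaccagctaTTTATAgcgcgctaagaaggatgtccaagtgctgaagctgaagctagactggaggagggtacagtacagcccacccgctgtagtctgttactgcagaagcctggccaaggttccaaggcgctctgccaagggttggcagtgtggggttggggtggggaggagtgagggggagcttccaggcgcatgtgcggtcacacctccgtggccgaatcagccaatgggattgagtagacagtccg
Nop2: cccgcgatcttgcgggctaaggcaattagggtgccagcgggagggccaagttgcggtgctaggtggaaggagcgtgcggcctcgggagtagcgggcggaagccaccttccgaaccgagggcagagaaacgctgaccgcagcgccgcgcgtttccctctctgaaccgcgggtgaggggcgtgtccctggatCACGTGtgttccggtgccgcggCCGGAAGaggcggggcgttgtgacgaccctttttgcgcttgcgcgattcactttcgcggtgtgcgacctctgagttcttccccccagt

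The Nop10 window held none of these letters, and that of Dkc1 held TATAAA on the reverse strand, printed as TTTATA. The E-box stood in 3 of the 26 windows (Nop2, Pes1 and Pno1), or 11.5%, against 8.09% of the windows of 27025 genes. CCGGAAG stood in 6 windows (Nop2, Gar1, Nhp2, Polr1c, Nolc1 and Ebna1bp2), or 23.1% against 9.93%, and TATAAA in 2 (Dkc1 and Pes1), or 7.69% against 15.7%. Polr1c and Nop2, which differed in direction with TSA, both held CCGGAAG. These are counts of letters and do not show that a factor binds.

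Over the whole series, FPKM summed over genes, each at its highest row, ran between 353950.2 and 468844.3 per library, and the number of genes at 1 FPKM or more between 9652 and 11456. Read numbers are not given, so the depth is unknown. The SD of the log2 ratio between the 2 libraries of a group, over genes at 20 FPKM or more, was 0.32 with TSA, 0.31 in Th2 cultures, and 0.039, 0.038 and 0.035 in CD4 T, B and ES cells. The last 3 pairs were assumed to differ by read sampling alone, which cannot be checked without the depth. Each was averaged and counted as 1 sample, which leaves 7 samples. Pluripotent, B cell, T cell and Th2 marker lists had their highest sums in the groups that the labels name, and values of marker lists that moved with a comparison are given beside it. The Th2 files repeat 1 value for all rows of a symbol, where the ES, B and CD4 T files give each transcript its own, so Th2 levels set against CD4 T or ES levels cross 2 kinds of file. Fewer cells of a type and less RNA per cell cannot be told apart in these bulk samples.

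The genes were most abundant in ES cells and least abundant in splenic lymphocytes. Their FPKM summed to 1872 and 1399 in the TSA-treated Th2 libraries, 2208 and 1815 in the Th2 libraries, 1022 and 1023 in the CD4 T libraries, 989.5 and 989.7 in the B libraries, and 4763 and 4732 in the ES libraries. As a share of the FPKM summed over all genes this was 0.42% and 0.30% with TSA, 0.53% and 0.41% in Th2 cultures, 0.28% in each of the CD4 T and B libraries, and 1.20% and 1.19% in ES cells. ES cells had the highest group mean for 31 of the 32 genes, and TSA-treated Th2 cultures for 1, Nop10. The lowest mean was in B cells for 14 genes, in TSA-treated Th2 cultures for 10 and in CD4 T cells for 8.

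**Figure D1:**
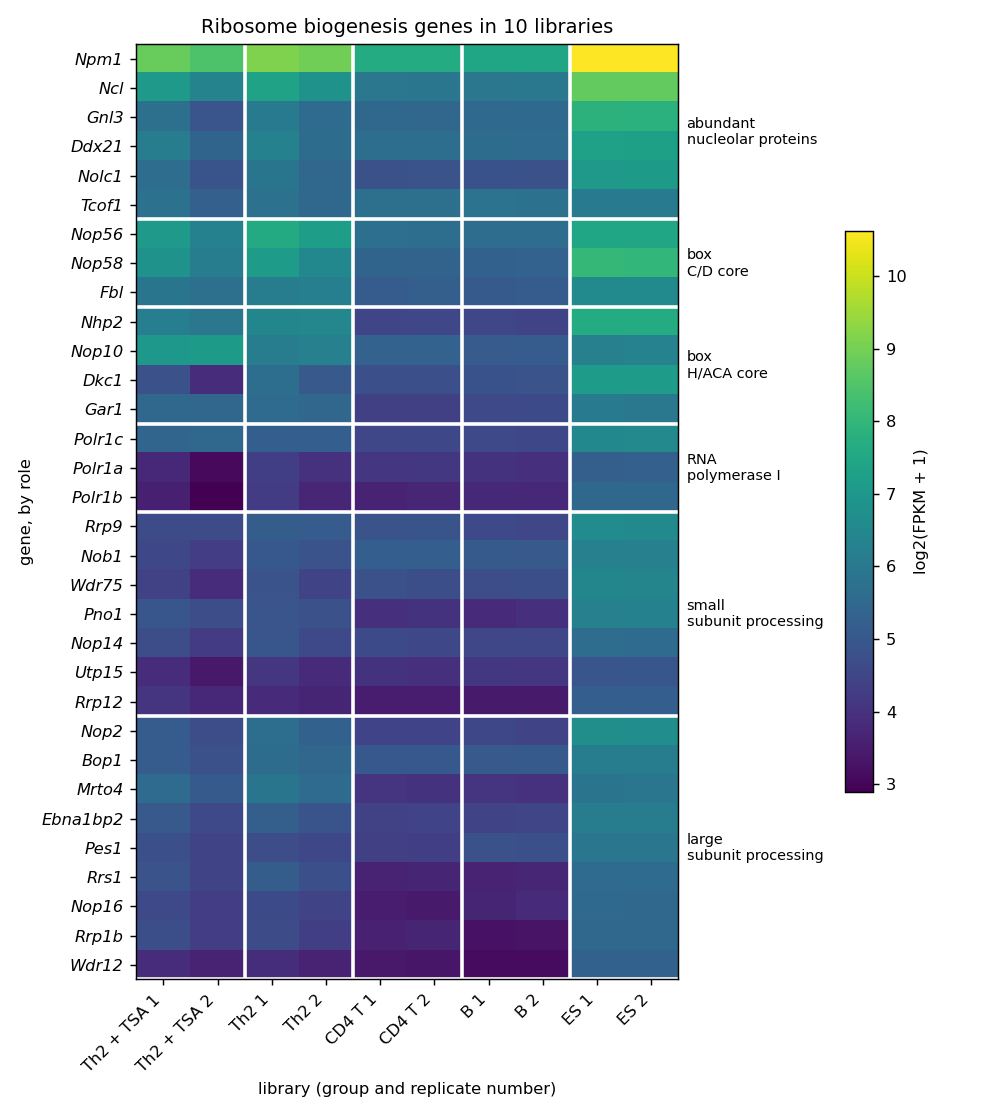
Level of each of the 32 genes (rows, ordered by role) in each of the 10 libraries (columns), as log2(FPKM + 1) on a colour scale. Npm1 is the highest gene in every library, and the ES group has the highest mean in all rows except Nop10.

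Npm1, the gene of the abundant nucleolar chaperone nucleophosmin, was the highest of the genes in every library. It had 454 and 349 FPKM with TSA, 557 and 494 in Th2 cultures, 200.02 and 201 in the CD4 T libraries, 174 and 173 in B cells, and 1576 and 1555 in ES cells. It made up between 17.5% and 33.1% of the summed level, with the lowest shares in B cells and the highest in ES cells. Ncl, which encodes nucleolin, a protein of ribosomal DNA chromatin and precursor RNA, was second by the mean over the 5 groups, with 134 and 81.2 FPKM with TSA, 163 and 112 in Th2 cultures, 60.8 and 60.1 in the CD4 T libraries, 61.2 and 61.7 in B cells, and 436 and 432 in ES cells. Nop56 was above Ncl in both Th2 libraries, and Nop10 was above it in TSA replicate 2. For Npm1 and Ncl, the ES libraries lay above all others and the Th2 libraries of either kind above the CD4 T and B libraries.

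The first comparison set Th2 cultures against the CD4 T cells from which such cultures are grown. Of the 32 genes, 11 rose, 0 fell and 21 did not pass the test (limma on log2(FPKM + 1), 7 samples, Benjamini-Hochberg adjusted p below 0.05 over 12367 genes), where 16.9% of all tested genes rose and 38.1% fell. The median log2 fold change of the 32 genes was 0.65, against -0.28 for all genes tested, and 28 of the 32 lay above 0. At an unadjusted p below 0.05 there were 14 genes higher and 0 lower. With the test restricted to 10152 genes at 1 FPKM or more in at least 2 Th2 libraries, chosen after seeing the data, 15 rose and 0 fell, where 23.5% and 37.8% of the genes tested did. The risen genes were Npm1, Fbl, Nop56, Gar1, Nhp2, Nop10, Polr1c, Pno1, Nop16, Rrs1 and Mrto4.

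Of the particle core genes, 2 of 3 box C/D genes and 3 of 4 box H/ACA genes rose in Th2 cultures. Nop56, a scaffold protein of the box C/D particle, had 195 and 149 FPKM in the Th2 libraries, against 51.6 and 50.5 in the CD4 T libraries. Its log2 fold change was 1.72 ± 0.42 (SE; adjusted p = 0.045, limma). Both Th2 libraries lay above both CD4 T libraries, and the Th2 pair differed between themselves by more than the CD4 T pair did.

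Fbl, the gene of the ribose methyltransferase fibrillarin, had 71.3 and 73.5 FPKM in Th2 cultures, against 34.6 and 36.2 in CD4 T cells (log2 fold change 1.01 ± 0.093, adjusted p = 0.0067, limma). Nop58, the partner of Nop56, had 141 and 89.6 FPKM in Th2 cultures against 40.4 and 39.8, and its change of 1.47 ± 0.46 did not pass the test (adjusted p = 0.077, limma). The Th2 libraries of all 3 genes lay above both CD4 T libraries.

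Nhp2 encodes an RNA-binding protein of the box H/ACA core, and it showed the largest change of the 32 genes in this comparison. It had 85.4 and 86.7 FPKM in Th2 cultures, against 21.7 and 22.2 in CD4 T cells (log2 fold change 1.92 ± 0.14, adjusted p = 0.0046, limma). Gar1, another core protein, had 47.2 and 42.1 FPKM in Th2 cultures and 19.4 in each CD4 T library (1.16 ± 0.11, adjusted p = 0.0068, limma). Nop10, the smallest protein of the core, had 69.6 and 75.5 FPKM in Th2 cultures, against 38.8 and 39.4 in CD4 T cells (0.87 ± 0.093, adjusted p = 0.0085, limma). Dkc1, the gene of the pseudouridine synthase dyskerin, which is also a telomerase component, had 50.8 and 32.3 FPKM in Th2 cultures against 26.7 and 26.6. Its libraries did not overlap, but the spread within the Th2 cultures was wide and the change of 0.59 ± 0.56 did not pass the test (adjusted p = 0.43, limma).

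The polymerase subunits differed among themselves. Polr1c, shared between RNA polymerases I and III, had 36.1 and 35.7 FPKM in Th2 cultures, against 22.4 and 22.6 in CD4 T cells, and rose (0.65 ± 0.078, adjusted p = 0.010, limma). Polr1a, the gene of the largest catalytic subunit of RNA polymerase I, had 19.0 and 14.8 FPKM in Th2 cultures against 16.2 and 16.5 in CD4 T cells, so the groups overlapped. Polr1b, the other large core subunit, had 17.6 and 12.2 FPKM in Th2 cultures against 11.4 and 12.1 in CD4 T cells, just apart. Neither passed the test, with adjusted p of 0.95 for Polr1a and 0.59 for Polr1b (limma).

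Of the 9 large subunit factors, 3 rose and the other 6 had changes above 0. Mrto4, an assembly factor that holds the place of a ribosomal stalk protein, had 58.0 and 47.0 FPKM in Th2 cultures, against 15.5 and 15.3 in CD4 T cells (1.70 ± 0.30, adjusted p = 0.022, limma). Rrs1, whose yeast counterpart helps to place the 5S RNA particle, changed by 1.32, and Nop16 by 1.07 on the log2 scale. In the PeBoW complex, which is needed for large subunit maturation, Bop1 had 48.1 and 42.2 FPKM in Th2 cultures against 31.2 in each CD4 T library, Pes1 had 25.4 and 22.8 against 19.3 and 19.2, and Wdr12 had 13.8 and 11.6 against 9.59 and 9.34. None of these 3 passed the test. Their libraries did not overlap, which adds little where the CD4 T pair counts as 1 sample.

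Small subunit factors had the lowest median change of the 6 roles, 0.18, and 1 of 7 rose. Pno1, which works with the endonuclease Nob1 at the last cut of the small subunit RNA, rose, with 29.3 and 27.2 FPKM in Th2 cultures against 14.6 and 15.4 in CD4 T cells (0.87 ± 0.14, adjusted p = 0.019, limma). Nob1 itself had the lowest change of the 32 genes, with 31.1 and 28.0 FPKM in Th2 cultures against 35.6 and 35.8 (-0.27 ± 0.15, adjusted p = 0.23, limma). Wdr75 and Utp15, which encode early factors of the small subunit processome, had log2 changes of -0.12 and -0.012, and Tcof1, the gene of the polymerase I cofactor treacle, one of -0.11. Wdr75 had 27.9 and 21.4 FPKM in Th2 cultures against 27.3 and 26.1 in CD4 T cells, Utp15 16.1 and 13.1 against 15.1 and 14.3, and Tcof1 53.5 and 44.6 against 52.9 and 52.5. All 3 overlapped between the groups.

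**Figure D2:**
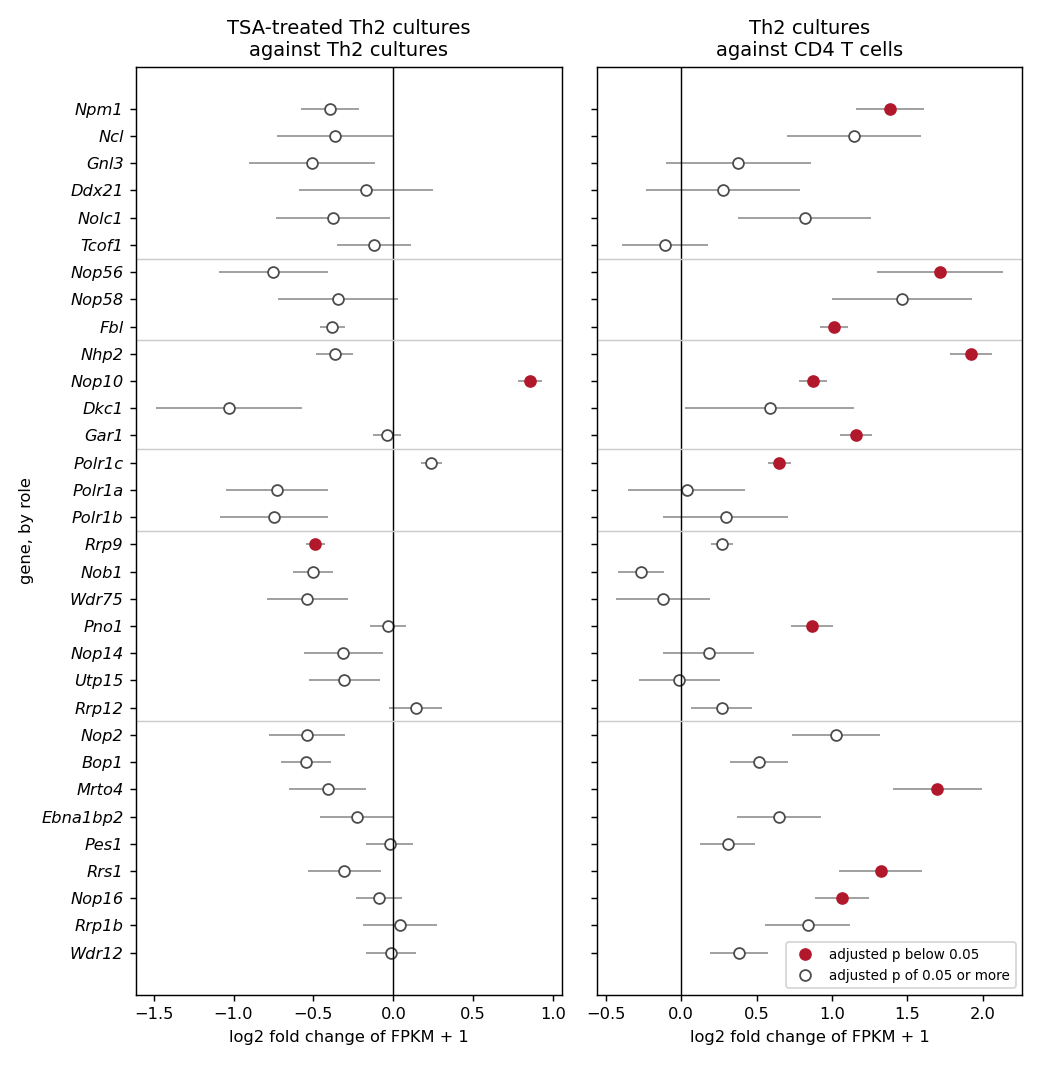
Log2 fold change of FPKM + 1 for the 32 genes (rows, by role), TSA-treated against untreated Th2 cultures on the left and Th2 cultures against CD4 T cells on the right, with bars of 1 standard error. Filled points passed the test: Nop10 and Rrp9 on the left, and 11 genes on the right.

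Leaving out 1 Th2 library leaves a single Th2 sample, so only the median change is given. It was 0.54 without Th2 replicate 1 and 0.81 without Th2 replicate 2. Other values moved with this comparison. The summed FPKM of 6 dividing-cell markers, Mki67 and Top2a among them, was 757 and 638 in Th2 cultures against 56.6 and 59.0 in CD4 T cells, and all 6 were above 1 FPKM in each of these libraries. CD4 T libraries also held 6 of 6 B cell markers, summing to 250.3 and 255, and 6 of 6 myeloid markers, at 372 and 369, where the Th2 libraries had 4.47 and 6.53 for the B cell list and 0.27 and 0.090 for the myeloid list. In the myeloid list C1qa, C1qb and C1qc were at 0 in both Th2 libraries. Across genes at 5 FPKM or more, those with transcripts under 1000 bases had a median change of 0.61 and those of 3000 bases or more one of -0.54, and among the 32 genes Spearman's rho between length and change was -0.41, across genes and not replicates. Lengths are of GENCODE vM21 transcripts. The part of these differences in the result was not tested.

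TSA-treated Th2 cultures were set against untreated ones, which asks what the inhibitor changed. Most of the genes had lower values with TSA. How many passed the test depended on the set of genes tested and on whether the replicate number was a term in the fit. It moved most with both together. Of the 32, 1 rose (Nop10), 1 fell (Rrp9) and 30 did not pass (limma, 12907 genes), where 9.26% of all tested genes rose and 4.14% fell. The median log2 fold change was -0.36 against 0.021 for all genes tested, and 28 of the 32 lay below 0, against 42.9% of all genes. At an unadjusted p below 0.05 there were 2 genes higher and 5 lower. The restricted test over 10225 genes gave 1 higher and 2 lower, where 16.8% and 10.9% of the genes tested were. The sample titles give treated and untreated cultures the same exp numbers. With that number as a block within the Th2 libraries, 1 gene (Nop10) was higher and 3 (Rrp9, Nop2 and Nop58) were lower over the 12907 genes, where 9.57% and 5.12% of all tested genes were. With the block and the restricted 10225 genes together, chosen after seeing the data, 2 were higher and 21 lower, where 29.8% and 27.8% of the genes tested were.

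Nop10 was the only box H/ACA core gene with a change above 0. It had 128 and 136 FPKM with TSA, against 69.6 and 75.5 in Th2 cultures, or 132 ± 5.32 against 72.5 ± 4.15 (SD, n = 2 each). The treated libraries lay above both untreated ones and above every other library of the series, ES cells at 76.0 and 79.6 included. The log2 fold change was 0.86 ± 0.076 (SE; adjusted p = 0.032, limma).

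Dkc1 had the largest change downward, with 27.2 and 13.6 FPKM with TSA against 50.8 and 32.3 in Th2 cultures. The groups did not overlap, but each pair was wide and the change of -1.03 ± 0.46 did not pass the test (adjusted p = 0.22, limma). Nhp2 had 72.7 and 60.8 FPKM with TSA against 85.4 and 86.7 (-0.37 ± 0.11, adjusted p = 0.13, limma), also apart. Gar1 had 44.5 and 42.2 FPKM with TSA against 47.2 and 42.1 in Th2 cultures, which overlapped (-0.038 ± 0.088). The FPKM ratio of Nop10 to Dkc1 was 4.71 and 9.96 with TSA, 1.37 and 2.34 in Th2 cultures, 1.457 and 1.482 in the CD4 T libraries, 1.20 and 1.21 in B cells, and 0.54 and 0.57 in ES cells. The 4 proteins form 1 complex, and the ratio was highest in the 2 treated libraries.

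RNA polymerase I genes also differed in direction. Polr1a had 12.7 and 7.41 FPKM with TSA against 19.0 and 14.8 in Th2 cultures (-0.73 ± 0.32, adjusted p = 0.21, limma), and Polr1b 10.8 and 6.40 against 17.6 and 12.2 (-0.75 ± 0.34, adjusted p = 0.22, limma). Polr1c had 41.2 and 43.9 FPKM with TSA against 36.1 and 35.7 (0.24 ± 0.064, adjusted p = 0.10, limma). The libraries of all 3 did not overlap, yet none passed the test. The ratio of Polr1c to Polr1a was 3.24 and 5.92 with TSA, 1.90 and 2.41 in Th2 cultures, and between 1.36 and 2.47 in the other 6 libraries. Across genes at 5 FPKM or more, those with transcripts under 1000 bases had a median change of 0.22 with TSA. Those of 3000 bases or more had one of -0.088. Among the 32 genes Spearman's rho between length and change was 0.038, across genes and not replicates. The part of length in the result was not tested.

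**Figure D3:**
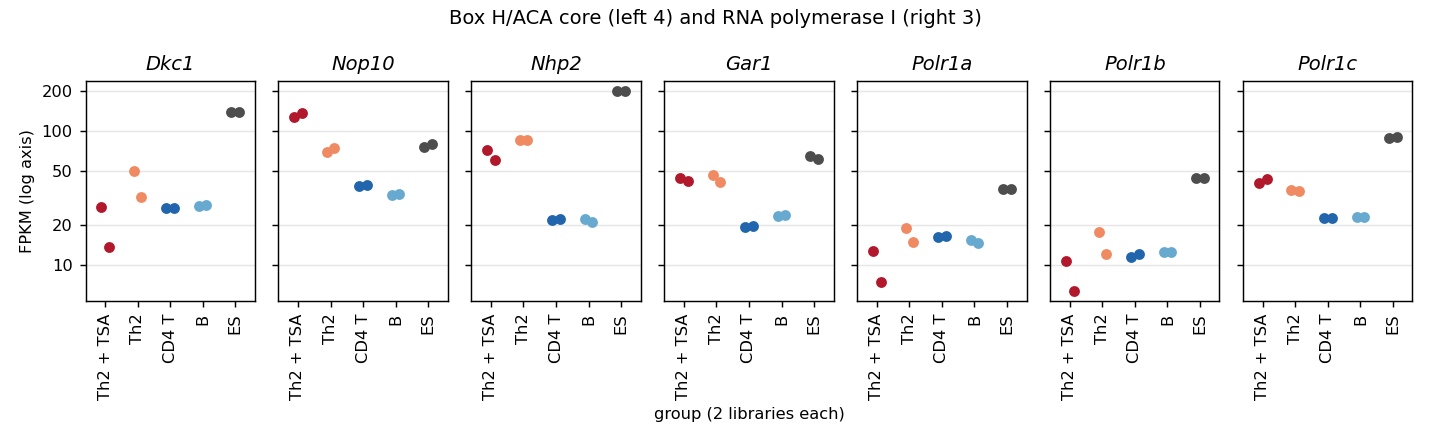
FPKM on a log axis of the 4 box H/ACA core genes and the 3 RNA polymerase I genes, with 1 point per library in each of the 5 groups. Nop10 is highest with TSA at 128 and 136 FPKM, while Dkc1, Polr1a and Polr1b have their lowest points there.

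Rrp9, a protein of the U3 small nucleolar RNA particle that the small subunit needs, had 24.1 and 24.7 FPKM with TSA against 35.2 and 34.01 in Th2 cultures (-0.49 ± 0.058, adjusted p = 0.038, limma). The pairs were narrow and lay apart. Nob1 had 22.5 and 18.8 FPKM with TSA against 31.1 and 28.0 (-0.50 ± 0.13, adjusted p = 0.092, limma). Rrp12, an export factor, was 1 of 4 genes above 0, with 15.9 and 12.3 FPKM with TSA against 13.4 and 11.8, which overlapped (0.14 ± 0.17). Rrp1b, a nucleolar protein of the large subunit pathway, was another, with 26.1 and 18.8 FPKM with TSA against 24.2 and 19.1 (0.041 ± 0.23).

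Among box C/D genes Nop56 had 131 and 77.3 FPKM with TSA, against 195 and 149 in Th2 cultures (-0.75 ± 0.34, adjusted p = 0.22, limma). The libraries were apart, as were those of Fbl, with 58.1 and 52.8 FPKM with TSA against 71.3 and 73.5 (-0.38 ± 0.076, adjusted p = 0.068, limma). Nop58 had 112 and 69.6 FPKM with TSA against 141 and 89.6, which overlapped. In PeBoW, Bop1 had 34.3 and 27.2 FPKM with TSA against 48.1 and 42.2 (-0.55 ± 0.16, adjusted p = 0.11, limma), while Pes1, with 26.4 and 21.2 against 25.4 and 22.8, and Wdr12, with 13.8 and 11.4 against 13.8 and 11.6, overlapped.

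Over the 32 genes, the treated libraries lay above both untreated ones for 2 and below both for 13, where 36.7% and 27.1% of all tested genes did so. Libraries of the same replicate number were also compared. In both numbers 24 genes (75.0%) were lower with TSA and 3 (9.38%; Nop10, Rrp12 and Polr1c) higher, against 35.8% and 44.3% of all tested genes, and the median changes were -0.27 in number 1 and -0.42 in number 2. Values also moved with the replicate number: 29 of the 32 genes were lower in replicate 2 in the treated and also in the untreated pair, by a median of -0.44 with TSA and -0.29 in Th2 cultures on the log2 scale, where all tested genes had medians of 0.0044 and 0.0. Both calls, Nop10 and Rrp9, were lost when any 1 of the 4 Th2 libraries was left out, and the median change was -0.077 without TSA replicate 2 and -0.54 without TSA replicate 1. With 10 libraries taken as separate samples, 2 genes were called higher and 12 lower, where 3902 and 2872 of the 12907 tested genes were.

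Dividing-cell markers moved with the treatment as well, with summed FPKM of 514 and 383 with TSA against 757 and 638. B cell markers summed to 17.3 and 43.1 with TSA against 4.47 and 6.53, and ribosomal protein genes took 22.1% and 22.6% of the summed FPKM with TSA against 17.1% and 18.8%. T cell markers summed to 1025 and 1014 with TSA against 1166 and 1136, and Th2 markers to 445 and 629 against 315 and 408. In the Th2 list only Il10 was higher, with 316 and 486 FPKM with TSA against 114 and 159. Gata3 was lower, with 49.0 and 49.2 against 80.3 and 98.1. So were Il4, with 67.3 and 66.3 against 75.4 and 96.0, and Il5, with 3.92 and 2.08 against 23.1 and 22.8. Il13 overlapped, with 8.75 and 25.3 against 22.5 and 32.1. The part of these values in the result was not tested.

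Against ES cells, the group with the highest levels, Th2 cultures stood lower. Of the 32 genes 0 rose, 17 fell and 15 did not pass the test (limma, 12367 genes), where 19.0% of all tested genes rose and 43.1% fell, and the median change was -1.21 against -0.41. All 32 lay below 0, and 23 had an unadjusted p below 0.05. Gnl3, which encodes the nucleolar GTPase nucleostemin, fell most, with 68.1 and 47.1 FPKM in Th2 cultures against 233 and 228 in ES cells (-2.01 ± 0.48, adjusted p = 0.039, limma). Ncl fell by 1.68 and Wdr75 by 1.75 on the log2 scale, with Wdr75 at 27.9 and 21.4 FPKM against 85.5 and 84.2. Dkc1, at 50.8 and 32.3 FPKM against 140.2 and 139, missed the threshold (-1.76 ± 0.56, adjusted p = 0.072, limma).

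At the other end, Nop56 had 195 and 149 FPKM in Th2 cultures against 173 and 173 in ES cells, and Nop10 69.6 and 75.5 against 76.0 and 79.6. Nop56 overlapped between the groups and Nop10 did not, and neither passed the test (adjusted p of 0.97 for Nop56 and 0.40 for Nop10, limma). Mrto4 was close too, with 58.0 and 47.0 FPKM in Th2 cultures against 56.8 and 59.8. Fbl had the next smallest change, with 71.3 and 73.5 FPKM in Th2 cultures against 94.3 and 94.2 in ES cells, and fell (-0.38 ± 0.093, adjusted p = 0.042, limma). Of the roles, small subunit factors had 5 of 7 genes called lower and box C/D genes 1 of 3. Restricting the test to 10152 genes at 1 FPKM or more in at least 2 Th2 libraries, chosen after seeing the data, gave 0 genes called higher and 26 lower, where 25.2% and 38.5% of the tested genes were. After median-ratio scaling 0 were higher and 10 lower, where 3312 of all tested genes were higher and 3747 lower. The median change was -1.33 without Th2 replicate 1 and -1.01 without Th2 replicate 2, fits that leave 1 Th2 sample. Fibroblast markers summed to 4.04 and 6.30 FPKM in Th2 cultures and to 522 and 528 in ES cells, with 6 of 6 above 1 FPKM. Dividing-cell markers were higher in Th2 cultures, at 757 and 638 against 521 and 516. Across genes at 5 FPKM or more, those with transcripts under 1000 bases had a median change of 0.30. Those of 3000 bases or more had one of -0.51, and among the 32 genes Spearman's rho between length and change was -0.31. The part of these values in the result was not tested.

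The comparisons of splenic lymphocytes with ES cells had 1 sample on each side, so there was no replicate test, and genes were counted by size: a log2 change of 1 or more in size, with the higher group at 5 FPKM or above. In CD4 T cells 29 of the 32 genes were lower by this rule and 0 higher, where 23.3% of all genes were lower and 19.3% higher, with a median of -1.80 against -0.16. In B cells 30 were lower and 0 higher, where 25.0% were lower and 17.5% higher, with a median of -1.77 against -0.30. Nhp2 had 21.7 and 22.2 FPKM in CD4 T cells, 22.1 and 21.0 in B cells, and 200 and 199 in ES cells, a log2 change of -3.12 for CD4 T and -3.15 for B cells. Npm1 changed by -2.96 in CD4 T and -3.17 in B cells. Tcof1 was nearest to its ES level, with 52.9 and 52.5 FPKM in CD4 T cells, 55.6 and 54.6 in B cells, and 65.5 and 64.6 in ES cells.

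The summed FPKM of the 6 dividing-cell markers was 56.6 and 59.0 in CD4 T cells and 56.9 and 56.3 in B cells, against 521 and 516 in ES cells. Fibroblast markers summed to under 1 FPKM in each of the CD4 T and B libraries, against 522 and 528 in ES cells, which were grown over fibroblasts. The myeloid list stood at 372 and 369 FPKM in CD4 T cells and 101 and 102 in B cells, against 59.3 and 58.3 in ES cells. The part of these values in the result was not tested.

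Gnl3 had 52.9 and 29.5 FPKM with TSA, 68.1 and 47.1 in Th2 cultures, 44.1 and 42.5 in the CD4 T libraries, 44.8 and 45.2 in B cells, and 233 and 228 in ES cells. Its 8 lymphocyte libraries all lay far below the ES pair. In the box C/D core, Nop58 had 40.4 and 39.8 FPKM in CD4 T cells and 38.1 and 38.6 in B cells, against 262 and 259 in ES cells. Nop56 had 51.6 and 50.5 FPKM in CD4 T cells and 49.3 and 49.1 in B cells, against 173 in each ES library. Fbl had 34.6 and 36.2 FPKM in CD4 T cells and 32.8 and 34.5 in B cells, against 94.3 and 94.2 in ES cells. All 3 box C/D genes were thus at like levels in the CD4 T and B libraries and higher in ES cells.

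In the box H/ACA core, Dkc1 had 26.7 and 26.6 FPKM in CD4 T cells and 27.8 and 28.2 in B cells, against 140.2 and 139 in ES cells. Nop10 had 38.8 and 39.4 FPKM in CD4 T cells and 33.4 and 34.1 in B cells, against 76.0 and 79.6 in ES cells. Gar1 had 19.4 FPKM in each CD4 T library and 23.2 and 23.6 in B cells, against 64.7 and 62.0 in ES cells. Nop10 thus had the smallest gap to ES cells of the H/ACA genes, and Nhp2 the widest. Of the polymerase genes, Polr1a had 16.2 and 16.5 FPKM in CD4 T cells and 15.3 and 14.7 in B cells, against 36.7 and 36.9 in ES cells. Polr1b had 11.4 and 12.1 FPKM in CD4 T cells and 12.6 and 12.4 in B cells, against 44.4 in each ES library, and Polr1c 22.4 and 22.6 in CD4 T cells and 23.0 and 22.9 in B cells, against 89.3 and 91.1. The gap to ES cells was narrower for Polr1a than for the other two.

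In PeBoW, Bop1 had 31.2 FPKM in each CD4 T library and 31.9 and 33.1 in B cells, against 69.8 and 70.3 in ES cells. Pes1 had 19.3 and 19.2 FPKM in CD4 T cells and 27.1 and 26.2 in B cells, against 59.4 and 60.2 in ES cells, and Wdr12 9.59 and 9.34 in CD4 T cells and 7.69 in each B library, against 38.4 and 38.2. Among these 3 genes Wdr12 was the lowest in every library. Mrto4 had 46.8 and 32.6 FPKM with TSA, 15.5 and 15.3 in CD4 T cells and 15.6 and 15.04 in B cells, against 56.8 and 59.8 in ES cells, so that both kinds of Th2 culture lay above the splenic cells. Rrp1b had 11.16 and 11.97 FPKM in CD4 T cells and 8.62 and 8.78 in B cells, against 43.8 and 43.9 in ES cells.

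Of the small subunit factors, Wdr75 had 19.9 and 13.7 FPKM with TSA and 25.5 and 25.7 in B cells, and Utp15 13.7 and 9.75 with TSA and 16.6 and 16.4 in B cells, against 29.5 and 29.9 in ES cells. Both had their lowest library under TSA. Nob1 had 35.6 and 35.8 FPKM in CD4 T cells and 32.5 and 31.9 in B cells, against 75.3 and 76.1 in ES cells. Rrp12 had 10.3 FPKM in each CD4 T library and 9.99 and 9.93 in B cells, against 35.5 and 35.7 in ES cells. Tcof1 had 53.7 and 37.5 FPKM with TSA, a pair that spanned the untreated Th2 libraries.

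**Figure D4:**
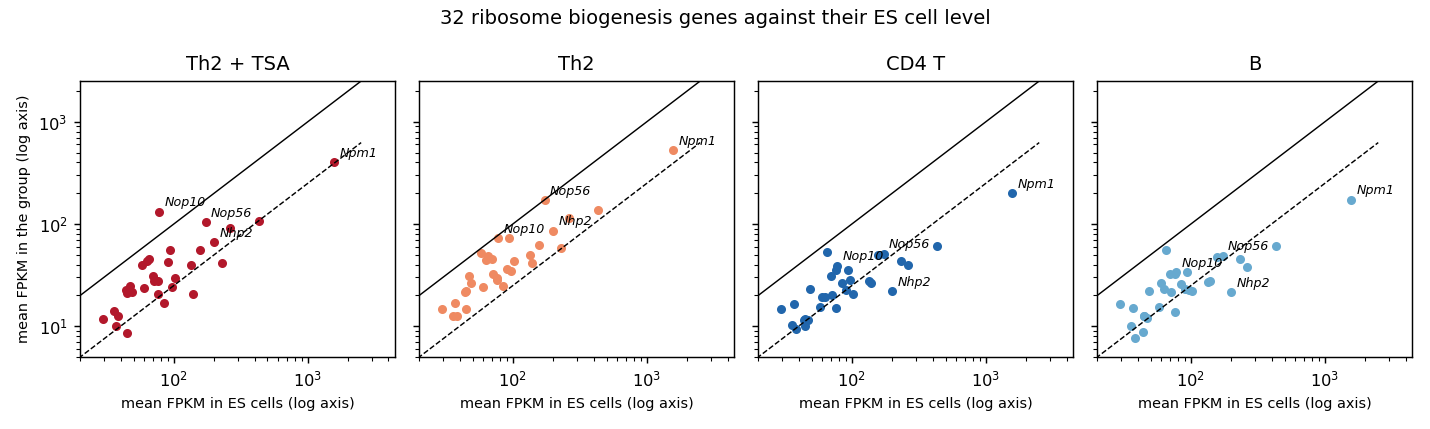
Mean FPKM of the 32 genes in each group (vertical, log axis) against their mean in ES cells (horizontal, log axis), 1 point per gene. The solid line marks equal levels and the dashed line a level 4-fold lower. Only Nop10 with TSA lies above the solid line, and Nop56 and Nop10 lie closest to it in Th2 cultures.

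CD4 T and B cells differed little in these genes. By the size rule 0 of 32 were higher and 0 lower in CD4 T cells, where 6.63% and 4.39% of all genes were, and the median change was 0.023 against 0.050 for all genes. The widest differences were Rrp1b, at 11.16 and 11.97 FPKM in CD4 T cells against 8.62 and 8.78 in B cells (log2 change 0.37), and Pes1, at 19.3 and 19.2 against 27.1 and 26.2 (-0.45). The sign of the median depended on the scaling: it was -0.13 after median-ratio scaling. Marker lists moved here too: B cell markers summed to 250.3 and 255 FPKM in CD4 T cells against 4339 and 4342 in B cells, T cell markers to 1710 and 1709 against 25.1 and 24.0, and myeloid markers to 372 and 369 against 101 and 102. Dividing-cell markers were at 56.6 and 59.0 FPKM in CD4 T cells against 56.9 and 56.3 in B cells.

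The other genes of the pathway gave a wider view. A list of 121 was drawn up, covering RNA polymerase I factors, small nucleolar particle assembly, small and large subunit processing and the RNA exosome, and 117 were found. With TSA, 0 of 117 rose and 7 fell (limma; 4 higher and 18 lower at an unadjusted p below 0.05), where 9.26% of all tested genes rose and 4.14% fell, with a median change of -0.23. Without the filter on low values 0 of the 117 were called, where 570 of all tested genes rose and 201 fell. With the replicate block 2 rose and 8 fell, where 9.57% and 5.12% of all tested genes did. With the block over the restricted genes 10 rose and 54 fell, where 29.8% and 27.8% of the genes tested did. In the fit without the block, 4 of the 7 belonged to the exosome, which trims precursor RNA. Exosc8 had 53.3 and 44.1 FPKM with TSA against 110 and 119 in Th2 cultures (-1.22 ± 0.13, adjusted p = 0.034, limma), Exosc10 19.8 and 15.4 against 39.7 and 36.3 (-1.08 ± 0.15, adjusted p = 0.045, limma), and Exosc3 27.1 and 30.5 against 49.2 and 59.2 (-0.89 ± 0.13, adjusted p = 0.047, limma). All 3 pairs lay apart. The median change of the 14 exosome genes was -0.37, and with the block 2 of them fell, or 11 over the restricted genes.

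Between Th2 cultures and CD4 T cells, 22 of 116 other pathway genes rose and 10 fell (limma), where 16.9% of all tested genes rose and 38.1% fell, with a median of 0.20. Median-ratio scaling gave 35 and 2, where 2887 of all tested genes rose and 3387 fell. Nhp2l1, which binds box C/D RNAs, had 99.0 and 99.9 FPKM in Th2 cultures against 11.5 and 10.5 (3.07 ± 0.095). Rsl24d1 and Nsa2, both large subunit assembly factors, had log2 changes of 2.28 and 2.25. Among genes that fell were Mdn1, an ATPase of large subunit assembly, with 7.82 and 5.00 FPKM in Th2 cultures against 28.5 and 28.7 (-2.03 ± 0.47), and Taf1c and Taf1b, subunits of the polymerase I selectivity factor, at -1.24 and -1.21. Against ES cells, 5 of 116 rose and 62 fell in Th2 cultures (median -1.04), where 19.0% of all tested genes rose and 43.1% fell. Median-ratio scaling gave 9 and 32 here, where 3312 of all tested genes rose and 3747 fell. Nsa2 (2.08), Polr1d (1.75) and Nhp2l1 (1.56) had the largest log2 changes upward and Mdn1 (-2.38), Rrn3 (-2.09) and Noc3l (-2.05) downward. Nsa2 had 30.6 to 40.3 FPKM in the Th2 libraries of either kind and 4.39 to 6.76 in the CD4 T, B and ES libraries. Polr1d had 210 to 285 against 50.8 to 66.4, and Mdn1 4.75 to 8.78 against 26.4 to 37.0. This split is also that of the 2 kinds of file, whose part was not tested. For Rrn3 and Noc3l the CD4 T and B libraries lay nearer the Th2 than the ES libraries. In CD4 T cells 67 of 117 and in B cells 69 of 117 were lower than in ES cells by size, where 23.3% and 25.0% of all genes were, and 0 were higher. Between CD4 T and B cells 0 of 117 differed by this rule, where 6.63% of all genes were higher and 4.39% lower.

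Of the regulators, Rrn3, which joins RNA polymerase I to the ribosomal DNA promoter, had 18.1 and 15.9 FPKM with TSA, 20.7 and 17.4 in Th2 cultures, 15.5 and 15.7 in the CD4 T libraries, 14.5 and 14.2 in B cells, and 83.8 and 84.8 in ES cells. Mycn, a transcription factor gene active in ES cells, was at 54.5 and 53.9 FPKM there and below 1 FPKM in all 8 other libraries. Myc, which drives growth and ribosome production in activated T cells, was listed at 0 in all 4 Th2 libraries, and at 34.9 and 34.6 in CD4 T cells, 50.7 and 52.1 in B cells, and 24.5 in each ES library. Since a 0 throughout the Th2 files may be a failed match of names, no fold was computed for Myc. Max, the partner of both, had 45.3 and 48.9 FPKM with TSA, 39.7 and 38.8 in Th2 cultures, and 79.8 and 81.3 in the CD4 T libraries.

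The reading of some genes has limits. In GENCODE vM21 12 of the 32 genes share exon bases with a gene on the opposite strand, from 5 bases to 185, among them Dkc1, Nhp2, Nop56, Rrp9 and Polr1a, and the use of strand in counting is not given in the sources used here. Ncl, Nop56, Nop58 and Gnl3 hold small RNAs within annotated exons. RefSeq names 1 pseudogene of Fbl and 2 of Mrto4, and reads from such copies cannot be told apart here.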

How the data were processed

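RNA-seq values of 10 mouse libraries, 2 in each of 5 groups, were read from the deposited tables, whose values the authors gave in FPKM per transcript row, already divided by transcript length and library total. The mm10 build and the tools TopHat 1.3.2, Bowtie 0.12.8 and Cufflinks 2.0.2 are listed in the submitters' processing notes. Tool settings, handling of multiply matching reads, strand use and read totals: not given in the sources used here. No counting interval is therefore given. Per the labels' protocols, total RNA was extracted with TRIzol and libraries were made with a TruSeq kit.

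A gene's value was the highest of its rows with that symbol. Library pairs of ES, B and CD4 T cells were assumed to differ by read sampling alone and were averaged, leaving 7 samples and 2 residual degrees of freedom. The single ES, B and CD4 T samples are assumed to vary like the Th2 groups. limma 3.58.1 in R 4.3.3 was fitted to log2(FPKM + 1) over 12907 genes at 1 FPKM or more in at least 2 libraries, with a mean-variance trend. The test is two-sided and a call is a Benjamini-Hochberg adjusted p below 0.05. Folds on this scale understate the change of low genes. Genes at 0 throughout 1 kind of file got no fold across the kinds, which left 12367. CD4 T, B and ES cells were compared among themselves by the size rule, with no test.

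Groups, replicate numbers and doses come from the sample labels, whose titles give treated and untreated Th2 libraries the same exp numbers without saying what else was shared. The deviations of same-numbered libraries from their group means correlated at 0.58 over 12907 genes and 0.90 over the 32 genes, in 2 pairs, so fits with the number as a block are given beside the TSA result. Whether the 2 libraries of a group stem from different mice or cultures is not stated, and p-values thus reflect only how far these samples differ, a spread that may be technical. The genes and lists were chosen with earlier results of these data known. Values in every library are given for the 5 genes highest on average, the 4 largest changes in each direction per tested comparison, and the particle, PeBoW and polymerase genes, and values in fewer libraries for further genes. Other gene sets were a list of 121 pathway genes, the regulators named in the report and marker lists; of these lists, the pluripotent markers summed to 2514 and 2513 FPKM in ES cells and to under 3 FPKM in every other library. CCGGAAG and TATAAA, searched beside the E-box, were chosen after seeing the data. The fitting script was tested on simulated data. Python 3.11.15, pandas 2.3.3, scipy 1.17.1 and matplotlib 3.10.9 were used for tables and figures.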

Additional observations from a re-analysis of the deposited data

How the results depend on the processing

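Sums or means of rows and a pseudocount of 0.1 left the counts of genes called higher and lower within 1.5 times in all comparisons run. For TSA-treated against untreated Th2 cultures the counts were 1 higher and 1 lower; 10 separate libraries gave 2 and 12, and genes at 1 FPKM in 2 Th2 libraries, an alternative chosen after seeing the data, gave 2 lower. Leaving out 1 Th2 library gave 0 and 0. For Th2 against CD4 T cells, 11 were higher. Quantile normalization gave 18 and 10 separate libraries 21, with 1 lower. With 1 Th2 library left out the median change ran from 0.54 to 0.81. Against ES cells, 17 were lower. Median-ratio scaling gave 10, separate libraries 29 and genes at 1 FPKM in 2 Th2 libraries 26. With 1 Th2 library left out the median change ran from -1.33 to -1.01. Fbl turned to 0.065 (log2) under median-ratio scaling. A log2 threshold of 2 left 10 genes lower in CD4 T than ES cells and 12 in B cells. The CD4 T against B median was -0.13 after median-ratio scaling, -0.055 after quantile normalization, and -0.0046 to 0.026 with 1 replicate left out. The causes were not tested. With 10 separate libraries, 3902 of all tested genes were called higher and 2872 lower with TSA. The counts were 3369 and 6495 for Th2 against CD4 T cells, and 3438 and 6976 against ES cells. Scaling changed the split of all called genes: Th2 against CD4 T cells gave 2086 higher and 4709 lower as deposited, 2887 and 3387 after median-ratio scaling and 3281 and 3329 after quantile normalization; Th2 against ES cells gave 2355 and 5329, 3312 and 3747, and 3800 and 3655; TSA gave 1195 and 534, 1110 and 745, and 937 and 804.

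With the replicate number as a block over 10 separate libraries, 2 genes were called higher and 13 lower with TSA, 22 higher and 1 lower in Th2 against CD4 T cells, and 29 lower against ES cells. Of all tested genes, 3958 were higher and 2969 lower with TSA, 3416 and 6552 against CD4 T cells, and 3463 and 7014 against ES cells. The block within the Th2 libraries gave 3 lower, and with genes at 1 FPKM in 2 Th2 libraries 2 higher and 21 lower. Depth is unknown, so low values carry no stated error.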
